A study of Mus musculus with 4 samples.

Results

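Ribosomal protein genes exist in the mouse genome as single working genes, here called parent genes, and as a larger number of copies that have lost their function, the pseudogenes. A whole-genome bisulfite data set of mouse hippocampus was used to compare the DNA methylation of both classes. Members were chosen by name only: every entry of the deposited table whose gene name starts with Rpl or Rps and a digit, or with Rplp or Rpsp and a digit, without the kinases named Rps6k and the binding protein Rps19bp1. A name that holds "-ps" put the entry among the pseudogenes, and all others were counted as parent genes. This gave 127 of the 25182 named genes of the table, 80 parent genes with 389 regions and 47 pseudogenes with 75 regions, or 464 of 849172 regions in all. Every member region had a value in each of the 4 libraries.

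All libraries came from CA1 hippocampal tissue of C57B6/J mice at an age of 117 days. The 2 libraries of the first group are labelled Tet2+f_Camk2aCre, taken to mean that Camk2a regulatory DNA, active in excitatory neurons of the forebrain, drives Cre recombinase, and the 2 libraries of the second group are labelled Tet2+f. Both groups thus carry the label Tet2+f, which is taken here as 1 floxed Tet2 allele, and no group with Cre alone is among the samples. Tet2 encodes an enzyme that oxidises 5-methylcytosine to 5-hydroxymethylcytosine, and bisulfite treatment reports the sum of both forms. The measured value is the percent of methylation per region, averaged over all cells of the tissue, so that neither recombination at Tet2 nor the cell types can be checked from it. No label states if replicate libraries stem from different animals. The tests therefore take libraries as units, and the spread between these may be technical. The mean over all regions ranged from 75.7% to 76.1% between the libraries, and the depth behind a value is unknown because the table holds no read counts.

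Ribosomal proteins form the large subunit (Rpl names) and the small subunit (Rps names) of the ribosome and are made in every cell. Their genes are typical housekeeping genes: transcription starts inside a CpG island, a stretch dense in CG dinucleotides that is kept free of methylation. The pseudogenes are mostly processed copies, made when the spliced messenger RNA was copied back into DNA and inserted elsewhere, which leaves the promoter behind. Most of the mammalian genome outside CpG islands is methylated at CG dinucleotides.

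Parent genes had low and pseudogenes had high methylation in every library. The mean over the 80 parent genes, each taken as the mean of its regions, was 26.7% and 26.6% in the Tet2+f libraries and 27.0% and 26.5% in the Tet2+f_Camk2aCre libraries. The mean over the 47 pseudogenes was 88.4% and 88.2% in the Tet2+f libraries and 88.5% and 88.3% in the Tet2+f_Camk2aCre libraries. The difference was 61.6 percentage points ± 0.0866 (SD, n = 4 libraries) and had the same sign in 4 of 4 libraries, for which the exact two-sided sign-flip permutation test gives p = 0.125, the smallest value it can reach with 4 libraries. Single parent genes ran from 0.152% to 95.3% with a median of 23.3%. Single pseudogenes ran from 75.1% to 95.9% with a median of 89.1%.

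**Figure D1:**
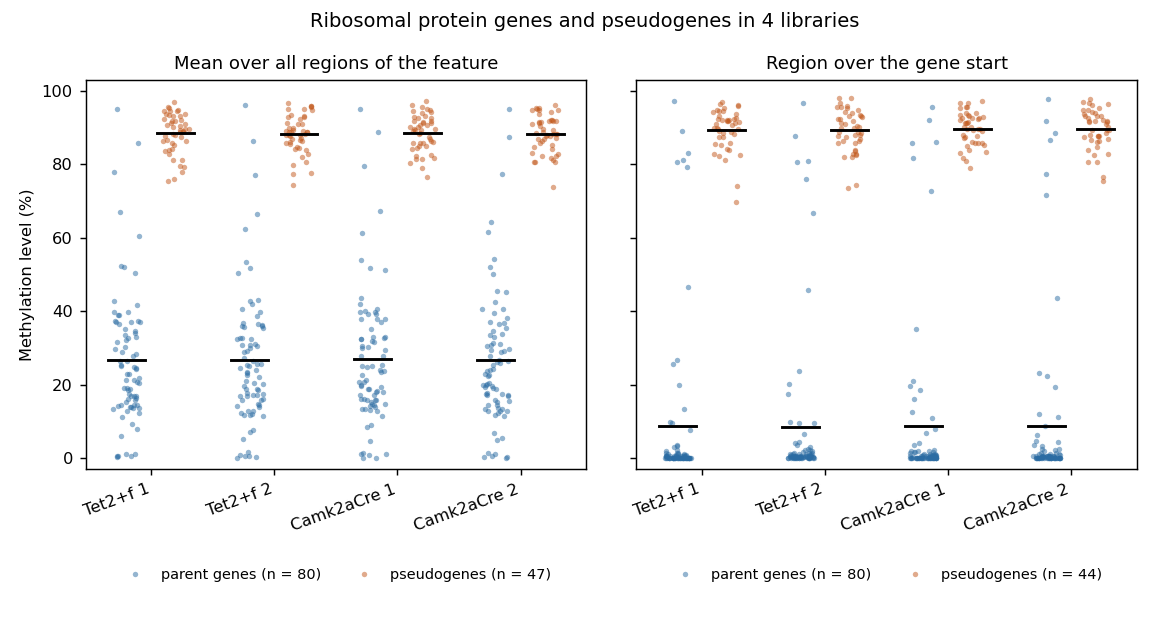
Methylation level in percent of each parent gene (blue) and pseudogene (orange) in each of the 4 libraries, as the mean over the regions of the gene (left) and in the region over the gene start (right). Black bars are class means, which stay between 26.5% and 27.0% for parent genes and between 88.2% and 88.5% for pseudogenes in the left panel.

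The contrast was larger at the gene start, the position at which the RefSeq annotation (GRCm38.p6, the assembly behind the name mm10) begins the gene. The start region is whichever region covers that base: in 67 of 80 parent genes and 43 of 44 pseudogenes it is one of the member's own, and in the others it carries the name of a neighbour or none and does not enter the level of the gene. There the mean over 80 parent genes was 8.73% and 8.48% in the Tet2+f libraries and 8.71% and 8.74% in the Tet2+f_Camk2aCre libraries. The mean over the 44 pseudogenes with a region at that position was 89.4%, 89.2%, 89.7% and 89.6% in the same order. The difference was 80.8 points ± 0.159 (SD, n = 4 libraries, exact sign-flip permutation p = 0.125). The median parent gene stood at 0.409%, 58 parent genes were under 1% and 68 were under 10%. The lowest pseudogene stood at 75.9%, so no pseudogene lay at 20% or below, and 42 of 44 were over 80%. With own regions alone, a check chosen after seeing the data, the difference at the start was 84.6 points.

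Promoter sequences from RefSeq (GRCm38.p6) are shown to set parent genes with an unmethylated start beside the exceptions among them. Each runs 5′ to 3′ from 200 bases before the annotated start base through the first 20 bases of the transcript, in the direction of the gene, with every CG dinucleotide, the site where methylation is read, in capitals. The first pair is a part of the 4 parent genes whose start region was at 0% in all 4 libraries, Rpl10a, Rpl26, Rps19 and Rps4x. Rpl10a, a large subunit protein, lies on the plus strand at chr17:28328271-28328490. Rpl26, a large subunit protein that also binds messenger RNA, lies on the plus strand at chr11:68901366-68901585.
Rpl10a: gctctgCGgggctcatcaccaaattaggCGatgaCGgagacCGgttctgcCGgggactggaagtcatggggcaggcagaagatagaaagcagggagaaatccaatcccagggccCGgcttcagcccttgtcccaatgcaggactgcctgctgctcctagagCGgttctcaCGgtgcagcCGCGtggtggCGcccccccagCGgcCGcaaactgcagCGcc
Rpl26: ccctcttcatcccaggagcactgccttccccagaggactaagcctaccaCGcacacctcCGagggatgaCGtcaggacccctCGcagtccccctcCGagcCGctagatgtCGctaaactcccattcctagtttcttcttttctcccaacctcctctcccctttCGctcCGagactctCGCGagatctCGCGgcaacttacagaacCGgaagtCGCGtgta
The Rpl10a stretch holds 14 CG dinucleotides and the Rpl26 stretch 16. The regions over the starts, chr17:28328453-28328646 and chr11:68901477-68901722, cover only the last part of each stretch. None of the 4 libraries had methylation in either region, and the CG dinucleotides before them are not part of these values.

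The next set pairs the parent genes Rpl10 and Rpl39, both on the X chromosome, with their autosomal paralogues Rpl10l and Rpl39l, which are known for expression in the testis. Rpl10 was shown at chrX:74270616-74270835 on the plus strand, and Rpl10l at chr12:66284382-66284601 on the minus strand.
Rpl10: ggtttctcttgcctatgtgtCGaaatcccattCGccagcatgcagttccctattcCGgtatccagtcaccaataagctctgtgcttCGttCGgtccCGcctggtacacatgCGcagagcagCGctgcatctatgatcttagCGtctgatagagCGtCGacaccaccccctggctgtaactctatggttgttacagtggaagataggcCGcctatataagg
Rpl10l: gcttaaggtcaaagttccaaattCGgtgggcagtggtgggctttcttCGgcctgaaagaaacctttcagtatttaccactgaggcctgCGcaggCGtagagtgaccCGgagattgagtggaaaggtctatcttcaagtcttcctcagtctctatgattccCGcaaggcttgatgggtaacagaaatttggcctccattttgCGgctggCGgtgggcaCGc
Rpl39 was shown at chrX:37085203-37085422 on the minus strand, and Rpl39l at chr16:10170028-10170247 on the plus strand.
Rpl39: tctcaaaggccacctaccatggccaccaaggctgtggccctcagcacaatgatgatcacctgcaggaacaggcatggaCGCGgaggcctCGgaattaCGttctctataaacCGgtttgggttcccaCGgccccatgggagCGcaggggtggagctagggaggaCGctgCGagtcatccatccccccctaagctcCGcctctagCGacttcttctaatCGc
Rpl39l: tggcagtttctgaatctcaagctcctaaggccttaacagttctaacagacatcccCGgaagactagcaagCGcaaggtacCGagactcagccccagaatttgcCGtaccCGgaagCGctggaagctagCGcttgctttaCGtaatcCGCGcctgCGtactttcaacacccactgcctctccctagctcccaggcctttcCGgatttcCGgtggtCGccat
In these stretches Rpl10 holds 12 CG dinucleotides and Rpl10l 9, and Rpl39 holds 12 and Rpl39l 14. The start region of Rpl10 was at 0%, 0.362%, 0% and 1% in the 4 libraries (Tet2+f first), and that of Rpl10l at 97.3%, 96.8%, 95.7% and 97.9%. The start region of Rpl39 had a mean of 1.23% and that of Rpl39l of 90.1%. The paralogues were thus at the level of the pseudogenes, with CG numbers of 9 against 12 and 14 against 12 in the printed stretches. These numbers and the levels cover different DNA. The start regions have 496 bp in Rpl10, 1305 bp in Rpl10l, 423 bp in Rpl39 and 2960 bp in Rpl39l. Those of Rpl10 and Rpl39 cover only a part of the stretch.

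The third exception of this kind is Rpl3l, a paralogue of Rpl3 that is known for expression in heart and skeletal muscle, shown at chr17:24727626-24727845 on the plus strand. Its sequence differs from the others in that it holds 1 CG dinucleotide.
Rpl3l: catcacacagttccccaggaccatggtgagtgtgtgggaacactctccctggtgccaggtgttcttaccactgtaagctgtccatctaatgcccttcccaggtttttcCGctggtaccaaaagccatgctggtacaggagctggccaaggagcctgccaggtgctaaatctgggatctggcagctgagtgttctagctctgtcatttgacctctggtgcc
Its start region was at 81.2% and 66.6% in the Tet2+f libraries and at 72.6% and 71.6% in the Tet2+f_Camk2aCre libraries.

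Rpl10l, Rpl39l and Rpl3l were the 3 parent genes without any region under 10%, and every region of theirs was over 50%. Rpl10l has 4 regions from 89.9% to 97.4%, Rpl39l has 3 from 84.2% to 90.1%, and Rpl3l has 6 from 60.9% to 87.7%. Each of the other 77 parent genes had at least 1 region under 10%, whereas 0 of 47 pseudogenes had one, and all regions of all 47 pseudogenes were over 50%. Parent genes had more regions than pseudogenes, a median of 4 against 2, so the lowest region was taken from more values in them. The other 4 measured paralogues had a region near 0: the start region was at 0.378% for Rpl22l1, 0.244% for Rpl7l1 and 0.500% for Rpl36al, and the lowest region of Rps27l was at 0.167%. Having a name of its own as a paralogue therefore did not go with a methylated start in every case.

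At the annotated start, 9 parent genes were at 20% or above. Beside the 3 paralogues these were Rpl17 at 84.5%, Rpl22 at 83.2%, Rps2 at 78.9%, Rpl38 at 42.8%, Rpl29 at 22.7% and Rps27l at 22.5%. In each of these 6 the annotated first base fell into a longer region that does not carry the name of the gene and is not part of its level, and shorter regions close to 0 followed downstream, directly or after 1 region at an intermediate level. Rps2, a small subunit protein, shows the arrangement: RefSeq begins the gene at position 24718121 of chromosome 17, in a region of 2270 bp, while the RefSeq promoter window lies 1942 bp further on at the stretch chr17:24719863-24720082, on the plus strand.
Rps2: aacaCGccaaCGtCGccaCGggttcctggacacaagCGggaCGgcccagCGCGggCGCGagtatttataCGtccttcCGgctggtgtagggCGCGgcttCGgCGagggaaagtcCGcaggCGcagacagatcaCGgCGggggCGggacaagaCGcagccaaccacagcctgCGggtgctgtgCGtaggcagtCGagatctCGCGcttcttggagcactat
This stretch holds 27 CG dinucleotides, and the 4 regions of 199 to 419 bp in and around it had means between 0% and 1.35%. Rpl22, which is shown at its annotated start at chr4:152324236-152324455 on the plus strand, holds 7 CG dinucleotides there.
Rpl22: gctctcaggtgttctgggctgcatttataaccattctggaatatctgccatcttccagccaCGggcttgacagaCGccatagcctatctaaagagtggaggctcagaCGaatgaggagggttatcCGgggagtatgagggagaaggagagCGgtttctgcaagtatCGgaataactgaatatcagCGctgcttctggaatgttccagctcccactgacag
RefSeq lists a further Rpl22 start downstream, and the region at chr4:152325829-152326077 just after that start was at 0% in all 4 libraries. In Rpl38 the RefSeq promoter window lies 762 bp inside the annotated gene, in a region at 9.60%, and the next region of 180 bp was at 0.217%.
Rpl38: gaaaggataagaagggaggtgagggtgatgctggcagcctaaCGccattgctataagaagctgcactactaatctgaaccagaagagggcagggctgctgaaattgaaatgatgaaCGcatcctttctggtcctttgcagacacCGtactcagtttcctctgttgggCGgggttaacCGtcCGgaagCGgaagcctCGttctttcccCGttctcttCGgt
In Rps27l the window lies 1462 bp inside the annotated gene, in a region of 303 bp at 0.167%.
Rps27l: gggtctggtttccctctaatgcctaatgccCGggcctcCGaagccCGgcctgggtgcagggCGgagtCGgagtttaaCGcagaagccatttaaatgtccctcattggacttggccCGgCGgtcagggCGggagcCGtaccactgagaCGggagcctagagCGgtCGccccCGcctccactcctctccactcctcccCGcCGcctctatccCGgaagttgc
The Rpl38 stretch lies at chr11:114668380-114668599 with 10 CG dinucleotides, and the Rps27l stretch at chr9:66945886-66946105 with 17, both on the plus strand.

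RefSeq promoter windows, 300 bases each from 250 before to 50 after the start base, were at hand for 60 of 80 parent genes and for 0 pseudogenes. The median parent window held 21 CG dinucleotides, with quartiles of 16 and 26, and the median of all 32851 windows was 7, with quartiles of 3 and 20. Of the 60 parent windows, 54 had a start base in a region under 10%. The exceptions were Rpl10l, Rpl39l, Rpl3l and Rpl22, together with Rps3 at 19.1% and Rpl6 at 11.01%, each of which had an adjacent region, of 288 bp and 272 bp, at 0.417% and 1.02%. All 35 parent windows with 20 or more CG dinucleotides were under 10%, as were 93.9% of all windows in the table with that many. Rpl39l, with 17 CG dinucleotides in its window, was in a class of 2643 windows with 15 to 19 of them, of which 3.86% were over 80%. Rpl10l, with 13, was in a class of 2851 windows with 10 to 14, of which 12.3% were over 80%. Over the 60 parent windows the rank correlation of the CG number with the methylation level was -0.30, given as a description with no test, and windows with many CG dinucleotides also lay in shorter regions (-0.70).

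A set of 3 short sequences was searched in the same windows on both strands, and a match is only a string of letters. GGGCGG, the core of the GC box bound by SP1-type factors, was present in 35 of 60 parent windows (58.3%) and in 35.7% of all windows. CCGGAAG, the core of sites for ETS-type factors such as GABPA, was present in 23 parent windows (38.3%) and in 8.86% of all windows. TATAAA, the TATA box core, was present in 7 (11.7%) against 13.6% of all windows. GGGCGG and CCGGAAG each hold a CG dinucleotide, so their share moves with the CG number of a window. Ribosomal protein messengers are known to begin with C in a run of pyrimidines, and at the RefSeq start base 19 parent windows (31.7%) had C against 16.3% of all, and 11 (18.3%) had a run of at least 5 pyrimidines beginning with C against 2.51% of all.

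Around the gene start the parent genes formed a dip and the pseudogenes did not. Regions with their midpoint within 0.5 kb of the start had a mean of 3.31% in parent genes and 89.5% in pseudogenes. These were 173 regions of 76 parent genes and 21 regions of 21 pseudogenes. Long start regions with a midpoint further away fall into other bins. From 0.5 to 2 kb downstream the mean was 22.3% against 87.7%, and from 0.5 to 2 kb upstream it was 46.5% against 86.0%. From 5 to 10 kb upstream the classes were at 65.8% and 69.5%, and from 5 to 10 kb downstream at 58.0% and 75.6%. The profile therefore differed most in the central bin, and the levels came closest at the upstream edge.

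**Figure D2:**
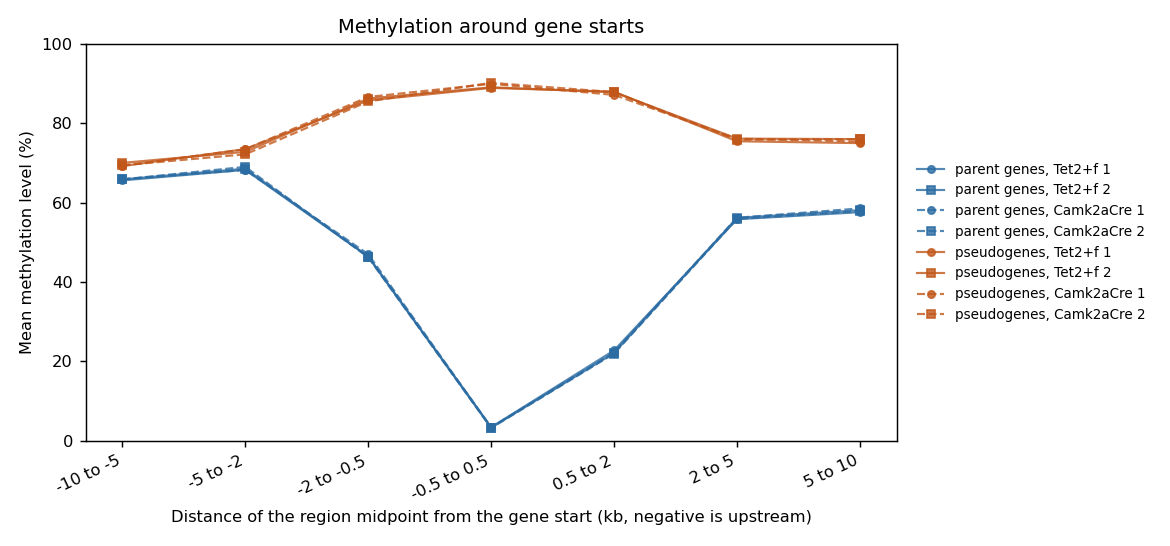
Mean methylation level in percent of regions by the distance of their midpoint from the gene start in kb, for parent genes (blue) and pseudogenes (orange), 1 line per library (solid, Tet2+f; dashed, Tet2+f_Camk2aCre). The 4 lines of each class lie close together, and parent genes fall to 3.31% in the central bin while pseudogenes reach 89.5%.

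Within a parent gene methylation was higher at its end. The region over the annotated gene end had a mean of 61.6% in 79 parent genes, it was above the start region in 73 of them, and the median rise was 59.0 points. Over the pseudogene ends the mean was 87.4%. Of the pseudogenes with separate regions at start and end, 11 of 27 were higher at the end, with a median difference of -0.687 points. Of all parent regions 200 were under 10%, 54 were between 10% and 50% and 135 were over 50%, and 62 of 80 parent genes had at least 1 region over 50%. The low mean of a parent gene was thus an average over short regions near 0 and longer ones with high levels.

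The lowest parent genes had 1 to 3 regions each. Rps27 of the small subunit has 1 region of 294 bp, with 0.610% in 1 Tet2+f library and 0% in the other three. Rpl36 stood at 0.350%, Rps28 at 0.501%, Rpl41, which encodes the smallest ribosomal protein, at 0.728% and Rpl23a at 1.02%. These levels depend on which regions carry the name. The region over the gene end was at 65.3% for Rps28, 49.8% for Rpl23a and 20.7% for Rps27 and does not enter their levels. It was at 0.0751% for Rpl36 and 1.33% for Rpl41. The start region of Rpl36, at 7.29%, is outside its level too. The highest after the 3 paralogues named above were Rpl7l1 at 66.2% and Rpl11, a regulator of the p53 pathway, at 61.4%. The name Rpl11 covers 14 regions in the table and Rpl24 covers 22, and both reach beyond the RefSeq gene into its neighbours. Without these 2 names the class difference was 62.4 points, and this check was chosen after seeing the data.

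Among the pseudogenes the highest were Rpl7a-ps8 at 95.9%, Rpl12-ps1 at 95.4%, Rpl36-ps3 at 95.1%, Rpl27a-ps1 at 94.4% and Rpl13-ps3 at 94.3%. The lowest was Rps10-ps1 at 75.1%, followed by Rpl31-ps17 at 79.8%, Rpl27-ps1 at 80.5%, Rpl10-ps2 at 80.7% and Rpl29-ps5 at 81.5%. Rps10-ps1 on chromosome 3 has 2 regions: one of 423 bp at the annotated start was at 94.3% and 94.8% in the Tet2+f libraries and 96.6% and 93.2% in the others, and the one of 2279 bp beside it had a mean of 55.6%, the lowest of all 75 pseudogene regions. The median annotated pseudogene is 550 bp long and the median region over its start is 1804.5 bp, and in 42 of 44 the region is longer than the pseudogene. A pseudogene value therefore includes DNA beside the copy, and reads of near-identical copies may be shared between loci.

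Against their flanks, parent genes were lower and pseudogenes were higher. Flanks are all regions without a member name between or within 10 kb of the regions named for a gene. Regions that overlap a gene without its name thus count as flank, among them the start regions of 13 parent genes. The difference is therefore in part one within the gene. Parent genes had a mean of 26.7% against 63.3% in their flanks, a difference of -36.6 points ± 0.208 (SD, n = 4 libraries), and 6 of 80 lay above their flanks. Pseudogenes had 88.4% against 78.9%, a difference of 9.47 points ± 0.263 (SD, n = 4 libraries), and 42 of 47 lay above their flanks. Both differences had the same sign in all 4 libraries (exact sign-flip permutation p = 0.125 each, the smallest possible). The flank measure was chosen after its values were seen, so these p-values do not come from a planned test. Rps6-ps1 stood out among the pseudogenes with 90.4% in flanks of 39.8%, followed by Rpl10-ps2 with 80.7% in 44.9% and Rpl31-ps17 with 79.8% in 45.8%. At the other end Rpl21-ps5 had a difference of -3.13 points from its flanks, which were at 89.8%. Pseudogenes were thus found at high levels in flanks from 39.8% to 89.8%.

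Each pseudogene was set beside the parent gene of the same name. Of 47, 46 had their parent gene among the members, and Rpl13-ps3 did not, because the table has no entry named Rpl13. All 46 pseudogenes were higher than their parent gene, in 4 of 4 libraries each, and all lay on another chromosome. The difference ran from 43.4 points for Rps10-ps1 to 94.7 points for Rpl36-ps3, with a median of 64.2. In 44 of 46 pairs the pseudogene was above every region that carries the name of the parent gene. The size of a difference depends on that naming, as for Rpl36, whose start region is not in its level. The 46 pseudogenes go back to 26 parent genes and are not independent of each other.

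**Figure D3:**
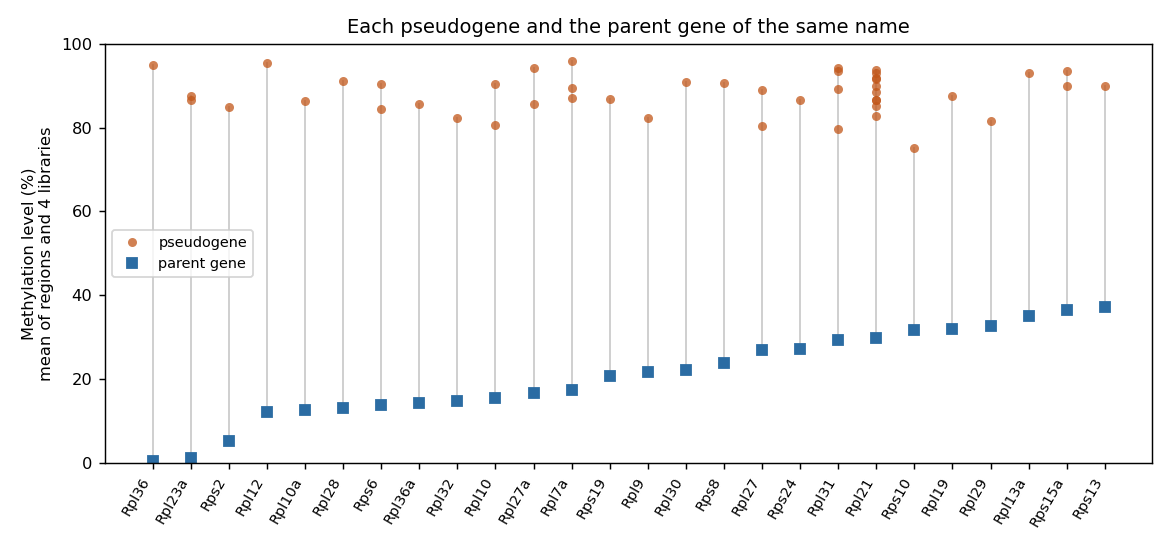
Methylation level in percent, as the mean over regions and 4 libraries, of each parent gene with named pseudogenes (blue squares, ordered by level) and of its pseudogenes (orange circles). All 46 pseudogenes lie above their own parent gene, by 43.4 to 94.7 points.

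Families with several pseudogenes show how far copies of 1 gene differ. Rpl21 has 10 named pseudogenes, from 82.8% to 93.7%, beside a parent gene at 29.7% with a start at 1.80%. Rpl31 has 4, from 79.8% to 94.3%, beside a parent gene at 29.2% with a start at 0.786%. Rpl7a has 3, from 87.1% to 95.9%, beside a parent gene at 17.4% with a start at 0.0631%. The spread among copies of a family, was 14.5 points for Rpl31 and 8.79 points for Rpl7a, and the lowest copy in the Rpl21, Rpl31 and Rpl7a families lay 53.1, 50.6 and 69.7 points above its parent gene.

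By subunit, the 49 large subunit parent genes had a mean of 29.9% and the 31 small subunit ones of 21.8%. The medians lay closer together, at 25.4% and 19.3%. The highly methylated paralogues Rpl10l, Rpl39l and Rpl3l all count to the large subunit and raise its mean. The pseudogenes had 88.6% (37 of the large subunit) and 87.3% (10 of the small subunit). The 3 proteins of the ribosomal stalk, Rplp0, Rplp1 and Rplp2, which recruit translation factors, all had starts under 10%, with the highest at 8.72%. The 4 parent genes on the X chromosome, Rpl10, Rpl36a, Rpl39 and Rps4x, had starts from 0% to 1.23%.

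Region length differed between the classes and is part of the contrast. Parent regions had a median length of 782 bp, pseudogene regions of 1928 bp and all regions of the table of 2589 bp. Of 158 parent regions of up to 500 bp, 157 were under 10%, the exception being a region of Rpl10l at 97.4%. Of all deposited regions of that length 84.9% were under 10%. Pseudogenes had only 2 regions that short, with a mean of 95.5%. In regions over 500 and up to 1500 bp the means were 28.9% for parent genes and 89.9% for pseudogenes, over 1500 and up to 2500 bp they were 65.2% and 87.8%, and above 2500 bp they were 72.8% and 86.4%. With regions over 1500 bp alone, a check chosen after seeing the data, the class difference was 22.1 points, and 36 of 38 pseudogenes were above their parent gene. Weighting regions by length gave 42.1 points. Pseudogenes were higher in every length class, and the size of the difference fell as regions became longer.

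**Figure D4:**
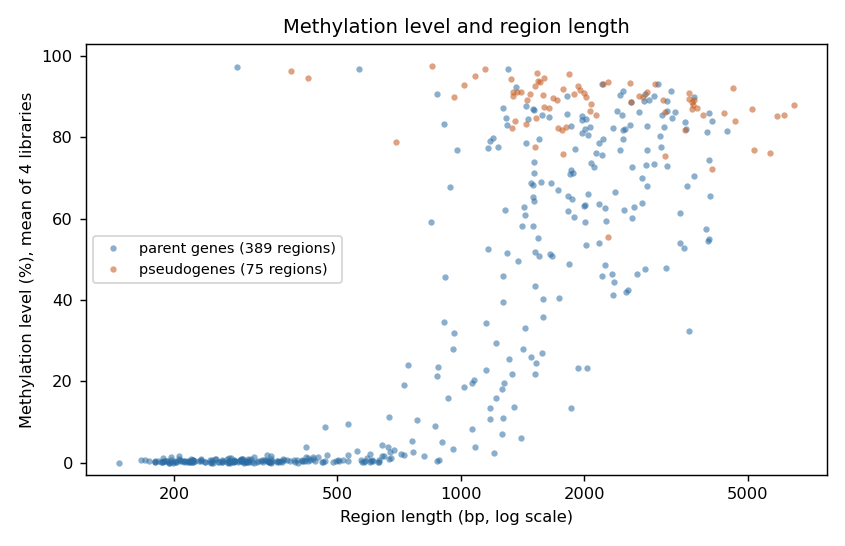
Methylation level in percent (mean of 4 libraries) of each member region against its length in bp on a log scale, for 389 parent regions (blue) and 75 pseudogene regions (orange). Parent regions of up to 500 bp lie near 0 with 1 exception at 97.4%, and pseudogene regions lie high at every length.

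Compared with other genes, the parent genes were low and the pseudogenes somewhat high for their kind. The 19546 other protein-coding entries had a mean of 66.9%, so that parent genes were lower by 40.2 points ± 0.208 (SD, n = 4 libraries, exact sign-flip permutation p = 0.125). At the start 68 of 80 parent genes (85.0%) were under 10%, against 45.9% of 19108 other protein-coding entries. The 422 other pseudogene entries had a mean of 83.6%, so that ribosomal protein pseudogenes were higher by 4.77 points ± 0.318 (SD, n = 4 libraries, exact sign-flip permutation p = 0.125), and by 6.13 points at the start. The medians lay closer together, at 89.1% against 87.1% for whole entries and 90.0% against 87.5% at the start, and the other pseudogene entries reach down to 0.363%.

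Among gene lists with related roles, Rpsa and Fau, ribosomal proteins whose names fall outside the rule, both had starts under 10%, and Rack1 has no entry in the table. The starts were under 10% for 19 of 20 translation factors, 25 of 33 ribosome biogenesis genes and 49 of 72 mitochondrial ribosomal protein genes. The list means over whole genes were 43.0%, 56.5% and 54.2%, all above the 26.7% of the parent genes. The start medians were 0.617%, 0.506% and 0.636%, against 0.409% in the parent genes. The level of a gene is the unweighted mean of its regions. Their number reaches 35 in Eif3h, 37 in Polr1a and 47 in Mrps28, against 22 in the parent genes. How far region numbers set the list means was not tested.

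Averaged over all regions, neither class differed between Tet2+f_Camk2aCre and Tet2+f by more than the spread between libraries. Parent genes had 26.7% ± 0.0733 (SD, n = 2) in Tet2+f and 26.8% ± 0.296 in Tet2+f_Camk2aCre, a difference of 0.0577 points (exact two-sided permutation test over 6 arrangements, p = 1). Pseudogenes had 88.3% ± 0.165 and 88.4% ± 0.195 (SD, n = 2 each), a difference of 0.120 points (exact permutation p = 0.667). The difference between the classes moved by 0.0618 points between the groups (exact permutation p = 0.667). At the gene start the pseudogenes had 89.3% ± 0.114 in Tet2+f and 89.6% ± 0.0861 in Tet2+f_Camk2aCre (SD, n = 2 each), a difference of 0.369 points in which the libraries of the groups did not overlap (exact permutation p = 0.333). The starts of the parent genes differed by 0.125 points (exact permutation p = 0.667). The smallest p this design allows is 0.333, so no such test could pass 0.05.

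No member passed the test on single regions or genes. With limma on logit levels and Benjamini-Hochberg adjustment over the whole table, 0 of 464 member regions were called, with 0.0% called among all 849014 regions, and 0 of 127 members, with 0.0% called among all 25181 genes with complete values. The smallest adjusted p was 0.937 for a member region and 0.812 for a member gene. At an unadjusted p under 0.05 there were 4 of 80 parent genes (5.0%) and 6 of 47 pseudogenes (12.8%), against 5.3% of all genes, and 19 of 389 parent regions and 7 of 75 pseudogene regions, against 4.6% of all regions. These unadjusted counts moved with the setting. A fit with a replicate block gave 11 pseudogenes (23.4%) against 5.94% of all genes. With an offset of 0.05 in the logit transform there were 5 parent regions (1.29%) against 4.5% of all regions. The groups did not overlap in 28 of 80 parent genes (35.0%) and 16 of 47 pseudogenes (34.0%), against 33.1% of all genes. For regions the groups did not overlap in 90 of 389 parent regions (23.1%) and 26 of 75 pseudogene regions (34.7%), against 32.8% of all regions. Groups that share a value of 0% cannot separate. Of the parent regions, 12 were at 0% in all 4 libraries and 166 in at least 1. Tet2+f_Camk2aCre was higher in 44 of 80 parent genes and 24 of 47 pseudogenes, against 51.1% of all genes. By subunit it was higher in 33 of 49 large subunit and 11 of 31 small subunit parent genes, with median differences of 0.247 and -0.307 points and 0 called in either. In each list of related genes 0 passed as well.

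The largest differences without overlap are given as values, none of which passed the adjusted test. Rpl31-ps17 had 75.5% and 77.5% in Tet2+f and 80.3% and 85.8% in Tet2+f_Camk2aCre, a difference of 6.54 points (limma adjusted p = 0.949). Rpl27-ps1 had 77.9% and 77.3% against 84.5% and 82.3% (5.82 points, limma adjusted p = 0.817). Rpl28-ps4 had 88.7% and 88.8% against 93.1% and 93.6% (4.61 points), with the smallest unadjusted p of the member genes at 0.000415 and a limma adjusted p of 0.812. Their values do not overlap between the groups, but the gap is set by 2 libraries on each side. In Rps15a-ps1 and Rpl7a-ps3 the differences were 2.53 and 2.47 points.

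In the other direction Rpl23a-ps3 had 90.0% and 88.3% in Tet2+f and 81.3% and 86.9% in Tet2+f_Camk2aCre, a difference of -5.09 points. Rpl21-ps1 followed with -3.95 points, Rpl23a-ps1 with -2.91, Rpl21-ps4 with -2.84 and Rps13-ps1 with -2.75. The same family could thus hold differences of both signs: among the 10 Rpl21 pseudogenes 4 were higher in Tet2+f_Camk2aCre, and the differences ran from -3.95 to 1.85 points.

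Among parent genes the largest differences without overlap between the groups were smaller. Rps4x, the X-linked gene of a small subunit protein, had 22.9% and 25.2% in Tet2+f and 19.8% and 19.5% in Tet2+f_Camk2aCre, a difference of -4.35 points (limma adjusted p = 0.835). Its start region was at 0% in all 4 libraries, and its region of 3954 bp, the furthest from the start, had 62.3% and 65.6% against 51.3% and 50.4%. Rps16 had a difference of -2.32 points, Rps15 of -1.76, Rps18 of -1.67 and Rps3a of -1.49. On the positive side Rpl36a, also X-linked, had 13.7% and 12.1% against 15.7% and 15.5%, a difference of 2.73 points. Rpl10, X-linked as well, had a difference of 2.23 points, Rpl6 of 2.09 and Rpl39l of 2.06. Of all parent genes 72 of 80 differed by under 2 points and 0 by over 5 points, and of pseudogenes 29 of 47 and 3.

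**Figure D5:**
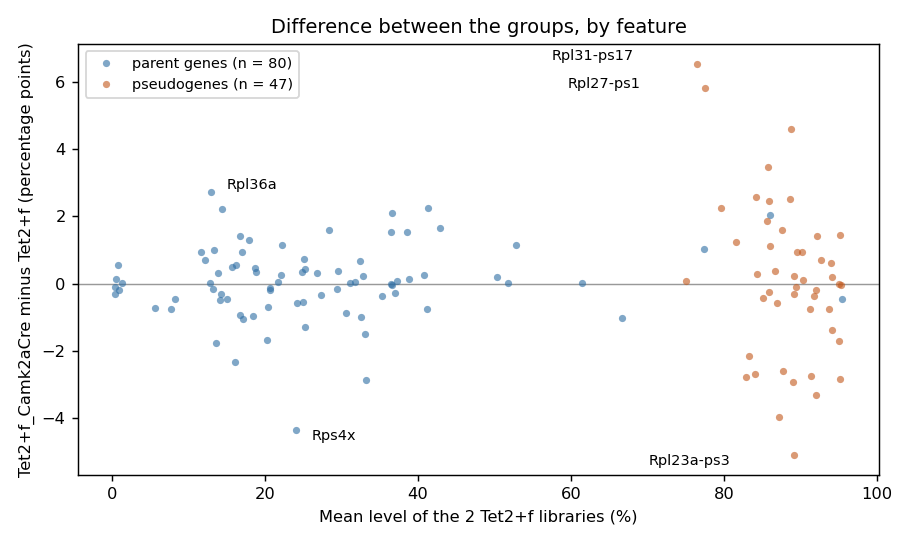
Difference in methylation level between Tet2+f_Camk2aCre and Tet2+f in percentage points, as group means of 2 libraries each, against the mean level of the Tet2+f libraries in percent, for 80 parent genes (blue) and 47 pseudogenes (orange). The points scatter on both sides of 0, from -5.09 for Rpl23a-ps3 to 6.54 for Rpl31-ps17, and none passed the adjusted test.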

How the data were processed

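DNA was treated with RNase, cleaned on Qiagen columns, bisulfite converted with the Accel-NGS Methyl-Seq kit and read in pairs on a HiSeq instrument, per the labels' protocols. The submitters' processing notes name the build mm10 and, without roles, edgeR, Bismark 0.19.0, FastQC 0.11.5 and Trim Galore 0.4.5. The authors deposited 1 percent methylation value for each region in each library. Not given in the sources used here are the way regions were drawn and CG sites averaged, the placing of reads that match both a gene and its pseudogenes, and any coverage minimum. Without coverage, no interval can be given for a level, and a 0% can rest on few reads.

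Libraries were grouped by title. Regions carry the gene name given in the table, and a gene's level is the unweighted mean of its regions. RefSeq positions matched all 80 parent genes (Rps3a as Rps3a1) and 45 of 47 pseudogenes. Rpl21-ps1 and Rpl19-ps7 lie elsewhere in RefSeq, and the start of Rpl21-ps10 falls between regions. Class levels were compared within libraries by exact sign-flip permutation, groups by exact permutation over 6 arrangements, and single regions and genes by limma 3.58.1 (R 4.3.3) after a logit transform of the level, log2 of (x + 0.01) over (1 - x + 0.01) for a share x, and adjusted by Benjamini-Hochberg at 0.05. Of 849172 regions, 158 without complete values were left out. The test was also run on simulated levels, the outcome of which is not reported here. That run therefore gives no measure of the power to detect differences of the size seen in the members. Python 3.11.15 with pandas 2.3.3 was used for the rest.

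The members, lists and tests were chosen with earlier results of these data known. Named genes are, per class, the 5 highest and 5 lowest in level, the 5 largest rises and falls without overlap between groups, every parent gene at 20% or above at its start, paralogues, and the parent genes with the 3 largest numbers of pseudogenes. Some genes that these rules and lists name are not reported here. Sequences were taken by level at the start, with Rpl10a and Rpl26 the first by name of 4 tied genes. Rpl10 and Rpl39 as partners of their paralogues, Rps3 and Rpl6, the flank, length and profile measures and the lowest region were chosen after their values were seen.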

Additional observations from a re-analysis of the deposited data

How the results depend on the processing

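The difference between the classes kept its sign in all 4 libraries in each alternative tried. It ran from 42.1 points with regions weighted by length to 67.8 points with regions up to the median length of the table, and was 61.6 to 61.7 points with each library left out in turn. It was 22.1 points with regions over 1500 bp alone, added after seeing the data. The difference at the start ran from 80.4 points on autosomes to 89.9 points for class medians. The difference between the groups turned its sign in some settings. For parent genes it ran from -0.152 to 0.267 points with each library left out, with -0.152 without the first Tet2+f_Camk2aCre library. For pseudogenes it ran from -0.0186 to 0.258 points, with -0.0186 without the same library. The change of the class difference between the groups ran from -0.0097 to 0.133 points, with -0.0033 without the second Tet2+f library and -0.0097 without the second Tet2+f_Camk2aCre library, and was -0.122 points with regions weighted by length. The cause was not tested. With limma, 0 member regions and 0 member genes were called with another offset, on percent levels, with a trended and robust prior, with mean levels of 5 to 95% only, with a minimum difference of 10 points and with each library left out. With mean levels of 5 to 95% only, 22 of 790547 regions of the table were called, against 0 of 849014. In a fit with a replicate block, the differences between the groups were 0.0577 points for parent genes, 0.120 for pseudogenes and 0.0618 for the change of the class difference, and 0 members were called, while 11 of 47 pseudogenes (23.4%) were at an unadjusted p under 0.05 against 5.94% of all genes. Without the block these were 6 of 47 (12.8%) against 5.3% of all genes. Parent regions at an unadjusted p under 0.05 were 19 (4.88%), against 4.6% of all regions. They were 5 (1.29%) against 4.5% with an offset of 0.05 and 9 (2.31%) against 4.96% on percent levels. With the trended prior they were 9 (2.31%) against 4.75%. Pairing by replicate number was not assumed, since the deviations of same-numbered libraries correlated at 0.00648 over regions and 0.049 over genes, although at 0.216 over the 127 members, and a group has 2 numbers only. For the named genes, 119 of 119 differences kept their sign. The named rises and falls had been picked for groups without overlap. Leaving out 1 library or adding a replicate block therefore could not turn their sign. Of the levels, 22 of 225 moved by over 1 SD, all of them with regions weighted by length. A coverage minimum was not run, because the table has no coverage. How reads of near-identical copies were assigned is unknown, as is the depth per region, so a low or high level of a single copy is uncertain.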

Other observations

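RefSeq places further ribosomal protein loci in regions that the table names for another gene or leaves without a name, and these were outside the naming rule. Left out were 1 pseudogene in regions of a member and 1 that shares its only region with another locus. Of the other 260 pseudogenes the mean was 85.7% ± 0.395 (SD, n = 4 libraries) and the median 88.1%, 210 were over 80%, 0 were under 50% and 0 had a region under 10%. The range was from 54.1% for Rpl9-ps3 to 97.0%. The mean was 85.8% for 145 in regions without a gene name and 85.7% for 115 in regions named for another gene.

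RefSeq lists 7 of these loci as protein-coding, with a mean of 60.5% and a median of 75.5%. Of these, 3 were under 50% and 3 were over 80%. Rpl13 had a mean of 19.9% with a lowest region of 0.333%, Rpl35a had 32.8% with 0.590% and Rpl35 had 35.5% with 0.0850%. The protein-coding loci over 80% were Rpl32l at 91.1%, Rps27rt at 85.3% and Rpl37rt at 83.3%. Rps23rg1 had 75.5% with a lowest region of 33.4%. Rps4l, which RefSeq lists as a transcribed pseudogene, had 52.6% with a lowest region of 24.3%. All of these values are shared with the gene that the region is named for, where there is one.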
